A study of Mus musculus with 20 samples.

Results

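Fatty acid oxidation and ketogenesis were followed through 29 genes, chosen by symbol from the gene count table, in bulk RNA-seq of 20 mouse livers. All 29 were found among the 55421 genes of the table, and all 29 belonged to the 22867 genes tested, since each passed a filter on low counts (at least 10 counts over all libraries) that 9700 genes with 1 to 9 counts and 22854 genes with none did not. The mice were wildtype C57BL/6, labelled female, and every mouse received an AAV8 vector at 6 months of age. The vector carried saCAS9, the Cas9 of Staphylococcus aureus, under the hepatocyte promoter Tbg, and a U6-driven guide RNA. In the sgHIRA livers the guide was directed against Hira, the gene of a protein that loads histone H3.3 onto chromatin outside replication. In the sgRosa26 livers it was directed against the Rosa26 locus, a control target. Each of the 4 groups held 5 livers, taken either 3 weeks or 6 months later. Nothing in the labels says how far the livers of a group differed in source, so p-values measure only the spread between these samples. The paper gives male mice for this time course in its text and female mice, like the labels, in a figure legend.

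Mitochondrial β-oxidation shortens a fatty acid by removing acetyl-CoA units in a cycle of dehydrogenation, hydration, a second dehydrogenation and thiolysis. Long chains enter the mitochondrion through the carnitine shuttle, very long and branched chains are first shortened in peroxisomes, and the electrons of the first step pass through the electron transfer flavoprotein to the respiratory chain. In the fasted liver much of the acetyl-CoA becomes ketone bodies, and the nuclear receptor PPARA raises many of the genes of the pathway.

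The labels were checked first. Hira had 128 to 171 counts in the sgRosa26 livers at 3 weeks and 87 to 127 in the sgHIRA livers, which is -0.48 on the log2 scale (adjusted p = 0.197 in edgeR). At 6 months the counts were 105 to 157 and 109 to 136, and the log2 difference -0.10 (adjusted p = 0.794 in edgeR). Cas9 was restricted to hepatocytes and a cut gene can still be transcribed, so the level of the transcript does not report how much protein was lost. The paper reports loss of HIRA protein with this guide, from a western blot against livers with the Rosa26 guide. Replicate 5 of the sgHIRA livers at 6 months had 9 counts of Xist and 2041 counts over 4 Y-linked genes, against 6286 to 8436 and 0 to 13 in the other 19 libraries, which goes against its label as female. Without it edgeR called 395 genes instead of 299 between guides at 6 months, 103 instead of 45 at 3 weeks, 213 instead of 74 between times in sgRosa26 livers and 28 instead of 15 in sgHIRA livers. The 6-month counts of members and the guide effects of members at 6 months that it turns or moves by over 1.5 times are also given without it. All 10 hepatocyte markers were detected in every group and summed to 91400 to 173000 CPM (counts scaled to library size) per library. The sums of the 6 Kupffer cell markers reached 1470 CPM in an sgRosa26 liver at 6 months and those of the 6 stellate cell markers 738 CPM in an sgHIRA liver at 6 months (replicate 3 in both cases). The adipocyte markers summed to at most 0.678 CPM outside the sgHIRA livers at 6 months and to 11.6 CPM in replicate 5 of that group, with Lep at 0 throughout. That sum came almost wholly from Cidea, with 223 counts in this library beside 2 of Adipoq and 3 of Plin1. Adipoq was higher in replicate 3 of the sgHIRA livers at 3 weeks, at 9 counts. Libraries held 19916430 to 24079736 counts in total.

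These promoters are shown because their genes anchor the results below. Echs1 is the only member that passed the test, Acot1 and Acot2 are neighbouring near-identical copies with wide spread, Fabp1 is the most abundant member, and Hadha and Hadhb share their upstream region. Of the 29 members, 25 matched the RefSeq promoter table of GRCm38.p6, in 27 windows. Each window was searched over the 250 bases before the start on both strands, so that a GC box on the other strand reads CCGCCC and a CCAAT box ATTGG. The stretches shown are the parts that lie outside every annotated exon, 5′ to 3′ on the strand of the gene, and capitals mark matches to CCAAT, to the GC box GGGCGG or to a direct repeat, AGGNCA written again after 1 spacer base, with N for any base. They lie at chr7:140116477-140116671 (minus strand), chr6:71199629-71199826 (plus), chr12:84009252-84009489 (plus), chr12:83987611-83987860 (plus) and chr5:30155163-30155247 (plus, between the starts of Hadha and Hadhb).
Echs1: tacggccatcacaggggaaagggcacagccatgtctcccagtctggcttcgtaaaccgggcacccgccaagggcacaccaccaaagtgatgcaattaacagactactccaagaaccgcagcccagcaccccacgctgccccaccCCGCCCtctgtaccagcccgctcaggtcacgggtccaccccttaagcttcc
Fabp1: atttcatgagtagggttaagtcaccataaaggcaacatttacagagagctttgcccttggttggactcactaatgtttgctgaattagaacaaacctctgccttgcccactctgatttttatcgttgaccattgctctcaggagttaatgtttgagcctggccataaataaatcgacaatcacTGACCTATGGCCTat
Acot1: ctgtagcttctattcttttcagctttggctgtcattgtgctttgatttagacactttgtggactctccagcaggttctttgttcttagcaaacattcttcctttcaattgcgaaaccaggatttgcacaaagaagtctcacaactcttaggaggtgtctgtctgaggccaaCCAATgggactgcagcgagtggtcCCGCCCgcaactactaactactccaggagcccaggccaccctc
Acot2: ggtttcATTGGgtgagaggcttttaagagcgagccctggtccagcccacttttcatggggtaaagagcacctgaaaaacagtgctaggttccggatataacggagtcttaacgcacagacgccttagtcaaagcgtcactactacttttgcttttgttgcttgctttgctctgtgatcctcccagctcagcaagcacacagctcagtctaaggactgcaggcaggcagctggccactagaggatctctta
Hadhb: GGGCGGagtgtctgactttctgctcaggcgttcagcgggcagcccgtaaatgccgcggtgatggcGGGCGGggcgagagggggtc

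The direct repeat of the kind bound by PPARA with its partner RXR was found upstream of Fabp1 and of no other matched member, and 0.338% of all 32851 promoter windows held it. CCAAT was found for 13 of the 25 matched members (52%) against 33.8% of all windows, and GGGCGG for 15 (60%) against 32.7%. The E-box CACGTG, the letters bound by the clock factors, was found for 0 of the 25 and in 6.02% of all windows. AAGGTCA, the letters bound by estrogen-related receptors, was found for Acadm only (4.08% of all windows), and TATAAA for Fabp1 only (12.4%). The windows of Hadha and Hadhb face each other on chromosome 5, with starts 273 bases apart on opposite strands. A match describes letters in the window and does not show that a factor was bound in these livers.

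Levels were compared between genes on the FPKM scale of the deposited table, which divides by transcript length. Fabp1 (chr6:71199827-71205023), which carries fatty acids through the cytosol of hepatocytes, stood at a mean of 5090 FPKM over the 20 libraries with a range of 2960 to 7660, far above the next members. Acaa1b, a peroxisomal thiolase, followed at 476 FPKM (175 to 666) and Acaa2, the mitochondrial thiolase, at 455 (402 to 536), and these ranges overlap. Etfb came next at 355 FPKM (261 to 463), clear of Hadh at 215 (162 to 257). From Hadh down to Acot2 every member's range over libraries overlapped that of its neighbour in the order, so that no further step stands clear of the spread. Acot1 at 28.5 FPKM, Pdk4 at 7.02 and Acot2 at 5.79 were the lowest. Counts per kilobase of the principal transcript gave the same first 3 and last 3 members, but placed Etfb 14th instead of 4th and Bdh1 21st instead of 13th. Exons of the gene Gm45233 cover 617 of the 1164 exon bases of Etfb on the same strand. Exons of other genes overlap those of 10 of the 29 members, and the part of shared reads in their counts was not tested. Counts behind the members ran from 88 (Acot2) to 79381 (Fabp1) in a library, and the 29 genes together took 0.7% to 1.24% of all counts.

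**Figure D1:**
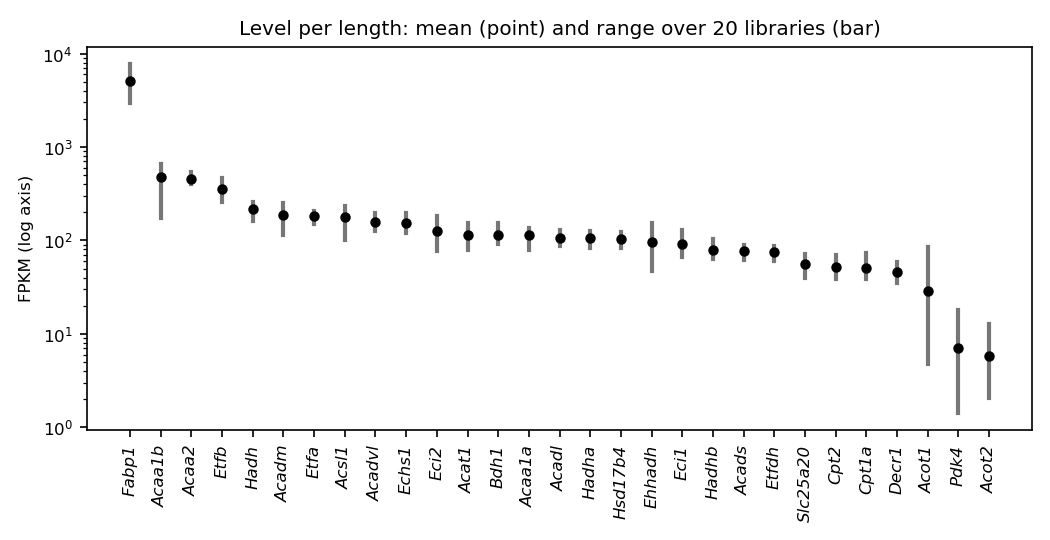
Level of each member per transcript length, as deposited FPKM on a log axis, ordered by mean, with points for the mean over 20 libraries and bars from the lowest to the highest library. Fabp1 (5090 FPKM) stands above the rest, most members lie between 45.4 and 476, and Acot1, Pdk4 and Acot2 are lowest with wide bars.

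The members varied together from liver to liver within a group more than between groups. The mean of the members' log2 CPM, each centred on its mean over the 20 libraries, ran from -0.38 to 0.35 in the sgRosa26 livers at 3 weeks and from -0.24 to 0.28 in the sgHIRA livers at 3 weeks. At 6 months it ran from -0.21 to 0.15 in the sgRosa26 livers and from -0.20 to 0.32 in the sgHIRA livers. The 4 group means were 0.03, -0.05, -0.03 and 0.05 with SDs of 0.28, 0.23, 0.14 and 0.18 (n = 5 each), so every difference between group means was smaller than the SD within a group.

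Single livers stood high or low across many members at once. In the sgRosa26 group at 3 weeks, replicate 1 was the highest of its group in 23 of 29 members and replicate 2 the lowest in 22. Replicate 3 of the sgHIRA livers at 3 weeks was the highest in 18 members and replicate 2 the lowest in 15. At 6 months replicate 5 of the sgRosa26 livers was the lowest in 18 members and replicate 3 of the sgHIRA livers the lowest in 21. That sgHIRA liver also had mean centred log2 CPM of 1.61 for the stellate, 1.35 for the lymphocyte and -0.28 for the hepatocyte markers, where the other 4 of its group ran from -0.86 to 0.27, from -0.98 to 0.97 and from -0.30 to 0.17, and their part in its low values was not tested. Against the median of all 20 libraries, replicate 1 of the sgRosa26 livers at 3 weeks was above it in 27 members and replicate 2 of the sgHIRA livers at 3 weeks in 0. A list of 27 other PPARA-responsive genes was high or low in some of the same libraries: its mean centred log2 CPM was -0.72 in the sgRosa26 liver that was lowest at 3 weeks, 0.49 in the sgHIRA liver that was highest at 3 weeks and 0.48 in the sgHIRA liver that was highest at 6 months. A list of 12 genes high in fasted liver stood at -0.34, 0.44 and 0.25 in the same 3 libraries. Other libraries did not show this: replicate 1 of the sgRosa26 livers at 6 months, highest in 15 members, stood at 0 for the PPARA-responsive list and -0.27 for the fasted list, and replicate 4 of the sgRosa26 livers at 3 weeks stood at -0.07 for the members and 0.82 for the fasted list. The part of feeding state in these differences was not tested.

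**Figure D2:**
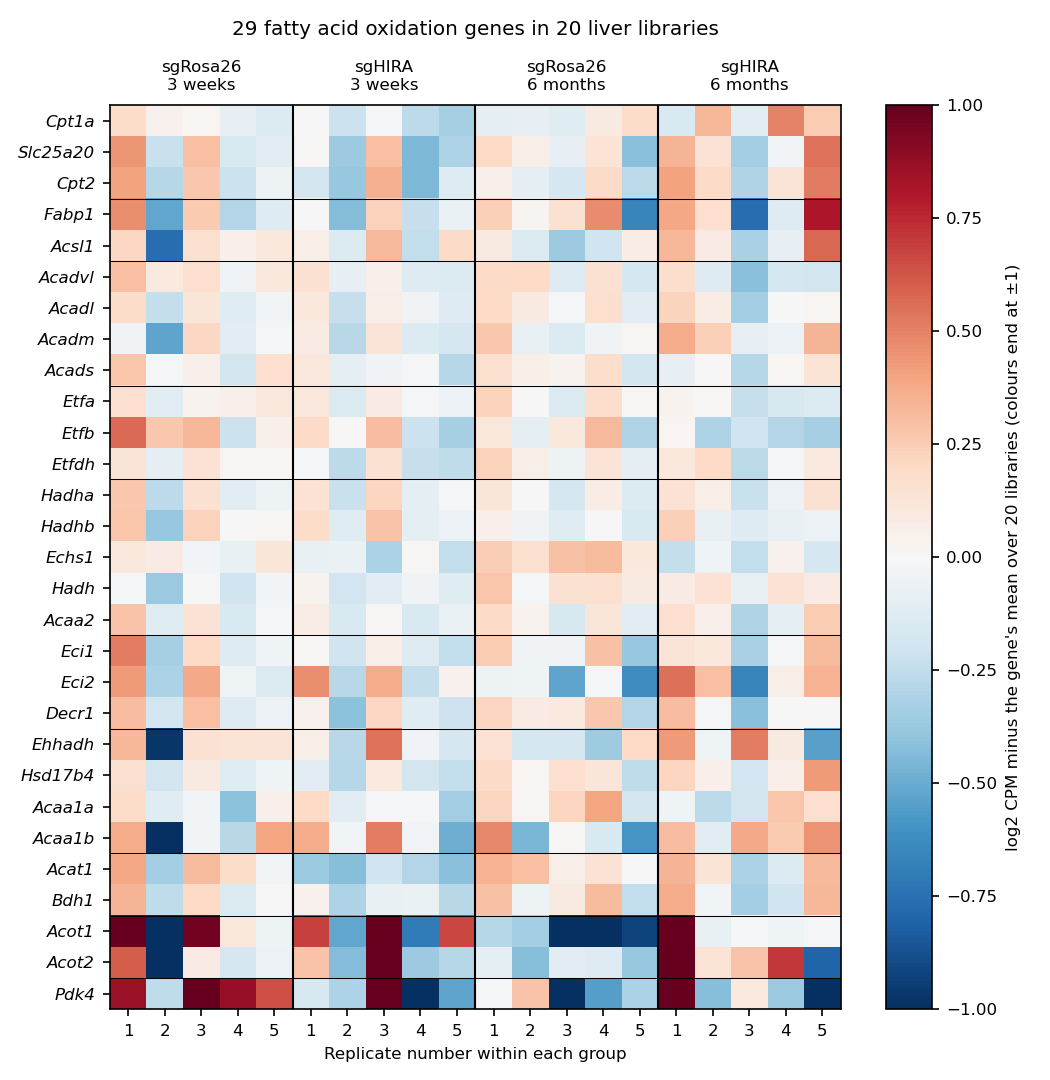
Each row is a member and each column a library, grouped by guide and time and ordered by replicate number. Colour gives log2 CPM minus the gene's mean over the 20 libraries, and whole columns, such as replicates 1 (red) and 2 (blue) of the sgRosa26 livers at 3 weeks, shift together while the 4 blocks look alike.

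Members differed in how widely they varied. The pooled within-group SD of log2 CPM was 0.11 for Echs1 and Hadh, 0.12 for Etfa and 0.15 for Etfdh, and 0.57 for Acot2, 0.84 for Pdk4 and 1.00 for Acot1. Its median over the 29 members was 0.224, beside 0.204 over the 12903 tested genes with a mean of at least 1 CPM. Acot1 spanned 17.8-fold between its lowest and highest library, Pdk4 11.1-fold and Acaa1b 3.74-fold, whereas Etfa spanned 1.37-fold. Hadha and Hadhb, the subunits of the trifunctional protein whose genes share an upstream region, kept the steadiest ratio of the 5 member pairs compared, a log2 ratio of counts of 1.70 to 2.01 in the 20 libraries with a pooled SD of 0.09, beside SDs of 0.17 and 0.18 for each gene alone. For Etfa and Etfb, the subunits of the electron transfer flavoprotein, the ratio had an SD of 0.23, for Cpt1a and Cpt2 0.28, for Acaa1a and Acaa1b 0.40, and for Acot1 and Acot2 0.66. The pairs were chosen with values of these data known.

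To ask whether the guide against Hira changed the pathway early, sgHIRA and sgRosa26 livers were compared 3 weeks after injection. No member passed the test, which called 0.197% of all genes tested (45 of 22867, edgeR's quasi-likelihood test at a Benjamini-Hochberg adjusted p below 0.05). Unadjusted p was below 0.05 for 2 of the 29 members, both lower with the Hira guide, and for 8.87% of all genes, and DESeq2 also called 0. Of the 29 log2 fold changes 18 were negative and 11 positive, and their median was -0.09, beside -0.01 over all genes tested. The median was -0.03 without replicate 1 and -0.15 without replicate 2 of the sgRosa26 livers. The 95% intervals of 27 members lay within ±1 on the log2 scale, and those of 20 within ±0.5. Acot1 and Pdk4 had wider intervals. Of all genes tested, 2.69% had groups that did not overlap at 3 weeks, and 0 members did.

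Acat1 (chr9:53580522-53610382), the mitochondrial acetoacetyl-CoA thiolase that acts in ketone body metabolism, had the smallest unadjusted p at 3 weeks. In replicates 1 to 5 of the sgRosa26 livers it stood at 473, 286, 452, 411 and 356 CPM, and in the sgHIRA livers at 281, 270, 315, 295 and 271 CPM. Replicate 2 of the sgRosa26 livers fell inside the sgHIRA range and the other 4 lay above it. The difference was -0.47 ± 0.14 (SE) on the log2 scale (adjusted p = 0.20 in edgeR). At 6 months the sgRosa26 livers stood at 460, 445, 376, 401 and 361 CPM and the sgHIRA livers at 458, 398, 290, 329 and 453 CPM. Replicates 3 and 4 of the sgHIRA livers were below all 5 sgRosa26 livers and the other 3 lay within their range, with a log2 fold change of -0.08 ± 0.13 (adjusted p = 0.836 in edgeR). Whether the guide effect on Acat1 changed between the times was tested directly, and the difference of 0.38 ± 0.19 did not pass (adjusted p = 0.771 in edgeR). Bdh1, which interconverts acetoacetate and 3-hydroxybutyrate, had log2 fold changes of -0.18 ± 0.15 and -0.04 ± 0.15 (adjusted p = 0.821 and 0.926 in edgeR).

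Evening clock transcripts separated the groups at 3 weeks. Of 9 clock genes high in the evening phase 5 were called higher with the Hira guide, namely Ciart, Per3, Dbp, Nr1d2 and Tef, and the mean centred log2 CPM of the list was -1.46 to -0.79 in the sgRosa26 livers and -0.44 to 1.36 in the sgHIRA livers. All 5 calls were lost together without any of replicates 1, 2 and 4 of the sgRosa26 livers or 4 and 5 of the sgHIRA livers at 3 weeks (adjusted p up to 0.153 in edgeR). Among 12 genes high in fed liver 11 had a positive log2 fold change at 3 weeks, with a median of 0.34 and 0 called, beside 4 of 12 genes high in fasted liver, with a median of -0.26 and 0 called. The part of collection time or feeding in the 3-week values of the members was not tested.

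To ask whether the pathway changed later, the same comparison was made 6 months after injection. A single member passed the test, Echs1, which was lower with the Hira guide, where the test called 1.31% of all genes tested (299 of 22867). No member was called with an absolute log2 fold change above 1, the threshold of the study. The log2 fold changes were positive for 17 members and negative for 12, with a median of 0.03, the same as the 0.03 over all genes tested, and 0.08 without replicate 1 of the sgRosa26 livers. Without replicate 5 of the sgHIRA livers, the library at odds with its label, the median was -0.04, 13 values were positive and 16 negative, and 0 members were called, where 1.74% of all genes were (395 of 22703). Leaving it out turned the sign of 4 small values, those of Fabp1, Acaa2, Eci1 and Hsd17b4, and moved 9 others by over 1.5 times, to 0.05 for Slc25a20, 0.12 for Acsl1, -0.14 for Acads, -0.04 for Etfdh, 0.01 for Hadha, 0.32 for Ehhadh, -0.15 for Acat1, -0.12 for Bdh1 and 0.54 for Pdk4. The intervals of 26 members lay within ±1, leaving out Acot1, Acot2 and Pdk4, and those of 17 within ±0.5. Echs1 (lower) and Acot1 (higher) were the members whose groups did not overlap, where 3.15% of all genes tested had groups that did not.

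**Figure D3:**
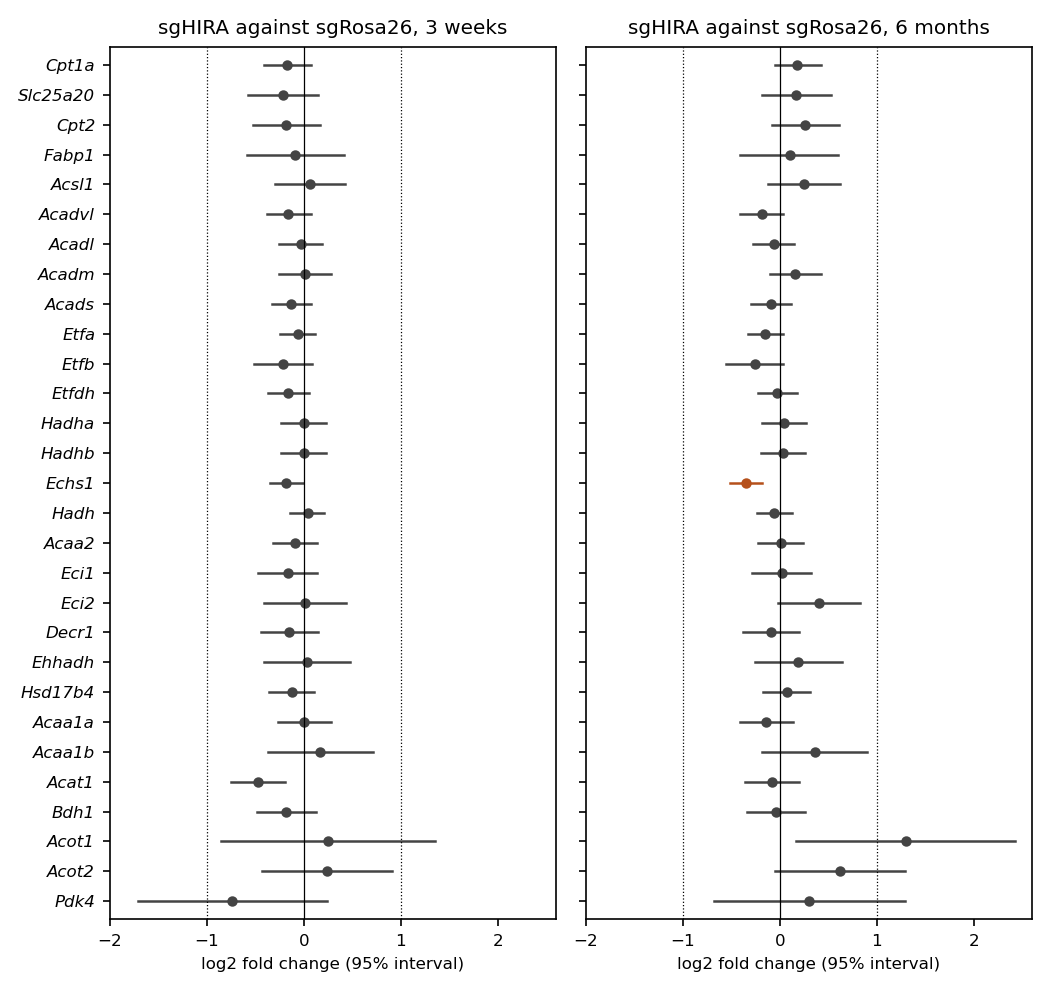
Log2 fold change of sgHIRA against sgRosa26 livers for each member at 3 weeks and at 6 months, with 95% intervals from edgeR and dotted lines at ±1. Echs1 at 6 months (-0.35, coloured) is the only point past the adjusted threshold, and Acot1, Acot2 and Pdk4 have the longest bars.

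Echs1 (chr7:140105710-140116476) encodes the short-chain enoyl-CoA hydratase, the hydration step of the mitochondrial cycle, and its upstream letters are shown first above. At 6 months it stood at 307, 289, 318, 323 and 278 CPM in replicates 1 to 5 of the sgRosa26 livers and at 219.5, 251, 218, 266.5 and 230.5 CPM in the sgHIRA livers. The lowest sgRosa26 liver lay above the highest sgHIRA liver. This is -0.35 ± 0.08 (SE) on the log2 scale, a 0.783-fold level (adjusted p = 0.0379 in edgeR). In bulk liver, fewer cells of a type and less RNA per cell cannot be told apart. At 3 weeks the values were 279, 275, 255, 246 and 281 CPM in the sgRosa26 livers and 246.5, 247, 208, 261 and 218 CPM in the sgHIRA livers. The groups overlap there, and the log2 difference was -0.18 ± 0.08 (adjusted p = 0.546 in edgeR). The change of the guide effect between the times was -0.17 ± 0.12 and did not pass (adjusted p = 0.836 in edgeR). Between times, the sgRosa26 livers differed by 0.18 ± 0.08 and the sgHIRA livers by 0.01 ± 0.08 (adjusted p = 0.362 and 0.992 in edgeR).

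The call on Echs1 depends on single libraries. Leaving out any of replicates 1, 3 and 4 of the sgRosa26 livers or of replicates 1, 3 and 5 of the sgHIRA livers at 6 months took the adjusted p to between 0.0513 and 0.117 with the log2 fold change between -0.35 and -0.32, and the value without replicate 5, the library at odds with its label, was -0.34 (adjusted p = 0.0513 in edgeR). Replicate 3 of the sgHIRA livers at 3 weeks, highest in 18 members, was the lowest of its group for Echs1, whereas replicate 3 of the sgHIRA livers and replicate 5 of the sgRosa26 livers at 6 months, lowest in 21 and 18 members, were the lowest for Echs1 too. Exons of Paox, which encodes a polyamine oxidase, share 142 bases with those of Echs1 on the opposite strand, and Paox held 23.7% as many counts. Paox had a log2 fold change of -0.67 ± 0.14 at 6 months (adjusted p = 0.0263 in edgeR) and of -0.04 ± 0.14 at 3 weeks (adjusted p = 0.976 in edgeR). The 6-month call on Paox was lost without any of replicates 3, 4 and 5 of the sgRosa26 livers or 1 and 3 of the sgHIRA livers (adjusted p up to 0.0824 in edgeR). The library kit keeps the strand, but whether the counting used it is not stated, and the part of shared reads in the value of Echs1 was not tested.

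The other steps between hydratase and thiolase stayed close to 0 at 6 months. Hadha had a log2 fold change of 0.04 ± 0.11, Hadhb of 0.03 ± 0.11, Hadh, the short-chain hydroxyacyl-CoA dehydrogenase, of -0.06 ± 0.09 and Acaa2 of 0.01 ± 0.11, or -0.05 without replicate 5 of the sgHIRA livers (adjusted p = 0.801 to 0.999 in edgeR). At 3 weeks these 4 ran from -0.09 (Acaa2) to 0.04 (Hadh). The acyl-CoA dehydrogenases, which open the cycle for chains of different length, gave -0.19 ± 0.11 for Acadvl, -0.06 ± 0.10 for Acadl, 0.16 ± 0.13 for Acadm and -0.09 ± 0.10 for Acads at 6 months. None of these 4 passed at either time, with the smallest edgeR adjusted p at 0.404 (Acadvl at 6 months).

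Electron transfer flavoprotein genes had negative values at both times. Etfb (chr7:43444083-43457800) stood at 101, 87.4, 100.5, 117 and 75.9 CPM in the sgRosa26 livers at 6 months and at 94.7, 75.2, 81.1, 76.1 and 74.0 CPM in the sgHIRA livers. The groups overlap, and the log2 difference was -0.26 ± 0.14 (adjusted p = 0.394 in edgeR). At 3 weeks Etfb stood at 138, 112.5, 117, 80.2 and 96.4 CPM in the sgRosa26 livers and at 106.5, 93.4, 116, 80.4 and 74.0 CPM in the sgHIRA livers, with a log2 fold change of -0.21 ± 0.14 (adjusted p = 0.747 in edgeR). Etfa, the other subunit, gave -0.06 ± 0.09 and -0.15 ± 0.09, and Etfdh, the oxidoreductase that hands the electrons to ubiquinone, -0.16 ± 0.10 and -0.03 ± 0.10. None of the 3 genes passed the test at either time.

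Among the auxiliary enzymes that prepare unsaturated chains, Eci2 (chr13:34977748-35027096), an enoyl-CoA isomerase, had the largest value at 6 months. It stood at 160, 161, 115, 164.5 and 107.5 CPM in the sgRosa26 livers and at 242, 204.5, 104, 173 and 211 CPM in the sgHIRA livers. Replicate 3 of the sgHIRA livers was below all 5 sgRosa26 livers and the other 4 were above them, and the log2 difference was 0.40 ± 0.21 (adjusted p = 0.354 in edgeR). At 3 weeks it stood at 223, 133, 216, 161 and 150 CPM in the sgRosa26 livers and at 229, 136.5, 215, 140 and 170.5 CPM in the sgHIRA livers, which span the same range (0.01 ± 0.20, adjusted p = 0.997 in edgeR). Eci1 gave 0.02 ± 0.15, or -0.05 without replicate 5 of the sgHIRA livers, and Decr1, the 2,4-dienoyl-CoA reductase, -0.09 ± 0.14 at 6 months.

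Acot1 (chr12:84009490-84018371) and Acot2 (chr12:83987861-83993873) encode a cytosolic and a mitochondrial acyl-CoA thioesterase and lie side by side on the plus strand of chromosome 12. Their coding sequences were 96.1% identical over 1236 aligned bases with an identical run of 273 bases. Of the distinct 100-base stretches of their transcripts, 16.5% of those of Acot1 and 17.1% of those of Acot2 were shared. Reads from shared parts can be split between the copies, so the values of each are uncertain. At 6 months Acot1 stood at 21.2, 20.3, 10.6, 12.7 and 13.6 CPM in the sgRosa26 livers and at 91.2, 24.6, 25.7, 25.2 and 25.6 CPM in the sgHIRA livers. All 5 sgHIRA livers were above all 5 sgRosa26 livers, 4 of them by little and replicate 1 by far. The log2 difference was 1.30 ± 0.54 (adjusted p = 0.246 in edgeR), and 0.68 without replicate 1 of the sgHIRA livers (adjusted p = 0.613 in edgeR). At 3 weeks Acot1 stood at 69.0, 5.34, 50.7, 28.1 and 25.0 CPM in the sgRosa26 livers and at 41.7, 18.1, 95.04, 15.9 and 41.2 CPM in the sgHIRA livers. That spread within each group is wider than any shift between them (0.25 ± 0.53, adjusted p = 0.959 in edgeR).

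Acot2 followed with smaller values. At 6 months it stood at 8.58, 6.80, 8.48, 8.39 and 7.02 CPM in the sgRosa26 livers and at 18.7, 10.1, 11.2, 15.0 and 5.24 CPM in the sgHIRA livers. Replicate 5 of the sgHIRA livers was below all sgRosa26 livers and the other 4 above, with a log2 fold change of 0.62 ± 0.32 (adjusted p = 0.368 in edgeR) of 0.81 without replicate 5 (adjusted p = 0.165 in edgeR) and of 0.39 without replicate 1 (adjusted p = 0.666 in edgeR). At 3 weeks it stood at 13.99, 4.39, 9.71, 8.16 and 8.80 CPM in the sgRosa26 livers and at 11.2, 6.75, 20.7, 7.09 and 7.49 CPM in the sgHIRA livers (0.24 ± 0.32, adjusted p = 0.916 in edgeR). With the counts of both genes summed, the 6-month log2 fold change was 1.10 (adjusted p = 0.257 in edgeR). The same libraries, replicate 3 of the sgHIRA livers at 3 weeks and replicate 1 at 6 months, were highest for both genes.

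**Figure D4:**
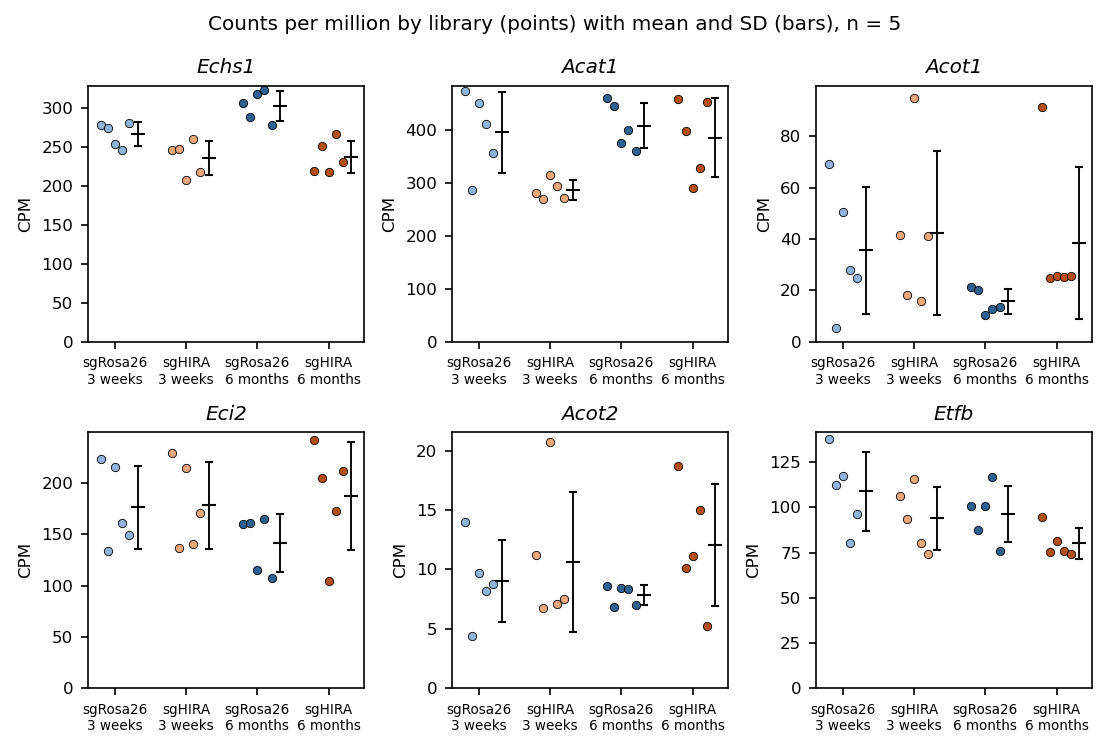
CPM of the 6 members with the smallest unadjusted p in a guide comparison, each on its own axis from 0, with a point for each of the 5 libraries of a group and bars for mean ± SD. Echs1 at 6 months separates the guides (278 to 323 against 218 to 266.5 CPM), and for Acot1 replicate 1 of the sgHIRA livers at 6 months (91.2 CPM) stands far above the other 4.

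In the carnitine shuttle, Cpt1a, the rate-setting transferase of the outer membrane, gave -0.17 ± 0.11 at 3 weeks and 0.18 ± 0.11 at 6 months, the carrier Slc25a20 gave -0.21 ± 0.17 and 0.17 ± 0.17, and Cpt2, the inner membrane transferase, -0.18 ± 0.17 and 0.26 ± 0.17. None of the 3 passed at either time, with the smallest edgeR adjusted p at 0.474. For binding and activation, Fabp1 gave -0.09 ± 0.24 and 0.10 ± 0.24 and Acsl1, the main long-chain acyl-CoA synthetase of liver, 0.06 ± 0.18 and 0.25 ± 0.18. Fabp1 was at 1359 CPM in replicate 3 and 4035 CPM in replicate 5 of the sgHIRA livers at 6 months, which are the lowest and the highest of all 20 libraries, the latter being the library at odds with its sex label. Without that library the 6-month value of Fabp1 was -0.11.

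The peroxisomal members gave no call. At 6 months Ehhadh, the bifunctional enzyme, had a log2 fold change of 0.19 ± 0.22, Hsd17b4, the multifunctional enzyme for branched chains, of 0.07 ± 0.11 (-0.02 without replicate 5 of the sgHIRA livers), Acaa1a of -0.14 ± 0.13 and Acaa1b of 0.36 ± 0.26 (adjusted p = 0.546 to 0.837 in edgeR). The thiolase copies Acaa1a and Acaa1b are 96.5% identical in their coding sequences with an identical run of 327 bases. They share 21.6% and 22.6% of their 100-base stretches, so their values are uncertain in the same way. Pdk4, the kinase that turns off pyruvate dehydrogenase when fat is burned, gave -0.74 ± 0.47 at 3 weeks (adjusted p = 0.731 in edgeR) and 0.30 ± 0.47 at 6 months (adjusted p = 0.824 in edgeR), or 0.54 without replicate 5 of the sgHIRA livers (adjusted p = 0.58 in edgeR). Pdk4 is given by sample because of its spread, a choice made after its values were seen: at 3 weeks it stood at 42.4, 19.5, 73.6, 42.8 and 36.5 CPM in the sgRosa26 livers and at 20.9, 18.8, 63.4, 10.0 and 16.1 CPM in the sgHIRA livers. Replicate 3 of the sgHIRA livers sets the 3-week value, which was -1.39 without it (adjusted p = 0.25 in edgeR), and which was -0.45 without replicate 3 of the sgRosa26 livers (adjusted p = 0.892 in edgeR).

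The times were also compared within each guide, where age, time since injection and any difference between collections cannot be told apart. In the sgRosa26 livers the test called 0.324% of genes (74 of 22867) and no member, with 4 of 29 members at an unadjusted p below 0.05, beside 12.8% of all genes. These were Hadh (0.25 ± 0.09, adjusted p = 0.191 in edgeR), Echs1 (0.18 ± 0.08), Pdk4 (-1.15 ± 0.47, adjusted p = 0.30 in edgeR) and Acot1 (-1.18 ± 0.54, adjusted p = 0.362 in edgeR). Pdk4 stood at 23.1, 28.4, 10.8, 15.9 and 18.7 CPM in the sgRosa26 livers at 6 months, within which range 1 of the 5 livers at 3 weeks fell. In the sgHIRA livers the test called 0.0656% of genes (15 of 22867) and no member. There 23 of 29 members had a positive log2 fold change, with a median of 0.08 beside 0.03 over all genes, and 3 of 29 had an unadjusted p below 0.05, beside 8.95% of all genes, all higher at 6 months: Cpt1a (0.35 ± 0.12, adjusted p = 0.351 in edgeR), Acat1 (0.43 ± 0.14, adjusted p = 0.298 in edgeR) and Hsd17b4 (0.27 ± 0.11, adjusted p = 0.502 in edgeR). Without replicate 5 at 6 months these 3 values were 0.33, 0.37 and 0.18, and 0 members were called. The median of 0.08 was 0.08 without that library too, but 0.20 without replicate 3 and 0.05 without replicate 2 of the sgHIRA livers at 3 weeks.

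Whether the guide effect itself differed between the times was tested as an interaction, which called 0% of genes (0 of 22867 in edgeR, with 1514 at an unadjusted p below 0.05, and 0 in DESeq2) and no member. Of the members 22 had a positive difference, with a median of 0.15 beside 0.03 over all genes. That median was 0.05 without replicate 1 of the sgRosa26 livers at 3 weeks, 0.23 without replicate 2 of the same group and 0.06 without replicate 5 of the sgHIRA livers at 6 months. The interval of the difference lay within ±1 for 26 members and within ±0.5 for 12. Cpt1a, with a difference of 0.36 ± 0.16, had the smallest adjusted p (0.746, edgeR). The comparisons share their groups, since each group enters the interaction and a time comparison.

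Other genes of the pathway were read from lists chosen with earlier results of these data known. Of 10 other ketone body genes, 20 other peroxisomal and 22 other mitochondrial genes, 0 were called at 3 weeks and 1 at 6 months, Mmut, the methylmalonyl-CoA mutase that feeds odd-chain and branched carbon into the citric acid cycle. Mmut stood at 156, 140, 142, 138 and 166 CPM in the sgRosa26 livers at 6 months and at 85.1, 109, 106, 104 and 112 CPM in the sgHIRA livers. The groups did not overlap, and the log2 difference was -0.53 ± 0.10 (adjusted p = 0.0141 in edgeR). The 22 mitochondrial genes had a median log2 fold change of -0.20 at 6 months with 5 positive. Between times in the sgRosa26 livers, Pcca, a subunit of propionyl-CoA carboxylase, rose by 0.45 ± 0.09 (adjusted p = 0.0279 in edgeR) and Cd36, a fatty acid translocase, by 1.10 ± 0.24 (adjusted p = 0.0497 in edgeR). Leaving out 1 library ended the call on Pcca in 7 of 20 cases and that on Cd36 in 15 of 20. Of 12 genes for uptake and activation that were tested and of 15 for malonyl-CoA and pyruvate control, 0 were called in either guide comparison.

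Among 16 regulators of oxidation 1 was called in a guide comparison, Ppard, a nuclear receptor of the PPAR family, which fell at 3 weeks with the Hira guide. It stood at 42.3, 47.0, 20.8, 38.8 and 30.1 CPM in the sgRosa26 livers and at 10.6, 13.9, 17.6, 9.59 and 12.0 CPM in the sgHIRA livers at 3 weeks. No value of the groups overlapped, with a log2 fold change of -1.49 ± 0.26 (adjusted p = 0.0269 in edgeR), and at 6 months it was 0.22 ± 0.26 (adjusted p = 0.754 in edgeR). The 3-week call was lost without any of replicates 1, 2 and 4 of the sgRosa26 livers or 1, 2, 4 and 5 of the sgHIRA livers (adjusted p up to 0.0858 in edgeR). Ppard was also called lower at 6 months than at 3 weeks within the sgRosa26 livers (-1.34 ± 0.26, adjusted p = 0.0309 in edgeR), a call lost without any of replicates 1, 2 and 4 at 3 weeks or 1, 3 and 4 at 6 months (adjusted p up to 0.0968 in edgeR). The sgHIRA livers at 3 weeks lay near both 6-month groups. The clock gene Dbp differed in the same comparisons, by 4.55 ± 0.79 between guides at 3 weeks and 4.40 ± 0.79 between times in sgRosa26 livers (adjusted p = 0.0251 and 0.0227 in edgeR), and these calls were lost in 6 and 5 of 20 fits without 1 library (adjusted p up to 0.077 and 0.0882 in edgeR). Ppard was high where the evening clock score was low, in the sgRosa26 livers at 3 weeks and in the 1 liver at 6 months with a score of -1, replicate 1 of the sgHIRA group, which held 30.2 CPM while the other 9 held 10.2 to 20.7 CPM. The part of the clock phase was not tested. Ppara itself gave 0.07 ± 0.16 and 0.04 ± 0.16.

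Among 27 tested PPARA-responsive genes outside the members, 24 had a positive log2 fold change at 6 months, with a median of 0.28 beside 0.03 over all genes, and 1 was called. That gene was Fitm2, which acts in lipid droplet formation, at 42.0, 34.9, 37.5, 31.9 and 31.7 CPM in the sgRosa26 livers and 56.7, 46.3, 53.5, 51.3 and 56.8 CPM in the sgHIRA livers. Its groups did not overlap, and its log2 fold change was 0.57 ± 0.10 (adjusted p = 0.0141 in edgeR). Cidec, a lipid droplet protein, had the largest value of the list at 2.80 ± 0.73 (adjusted p = 0.0597 in edgeR). It stood at 60.6 CPM in replicate 5 of the sgHIRA livers and at 2.07 to 3.23 CPM in the other 4, and its value was 0.39 without replicate 5 (adjusted p = 0.28 in edgeR). Fgf21, a fasting hormone of liver, gave 2.02 ± 0.67 and Cyp4a14, a fatty acid ω-hydroxylase, 1.16 ± 0.47, and neither passed (adjusted p = 0.142 and 0.237 in edgeR). Without replicate 1 of the sgHIRA livers Cyp4a14 was at 0.56 (adjusted p = 0.626 in edgeR). The list had 2 calls without any of replicates 1, 2, 3 and 4 of the sgHIRA livers, and Cidec missed the threshold in 16 of 20 fits without 1 library (adjusted p from 0.035 to 0.28 in edgeR). Without replicate 5, 24 of the 27 were positive with a median of 0.30 and 1 was called, and Fitm2 and Mmut were at 0.55 and -0.56 (adjusted p = 0.0155 and 0.0122 in edgeR). At 3 weeks 13 of the 27 were positive and 0 called. The mean centred log2 CPM of the list at 6 months was -0.52 to 0.01 in the sgRosa26 livers and -0.22 to 0.48 in the sgHIRA livers, ranges that overlap through replicate 3 of the sgHIRA livers.

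**Figure D5:**
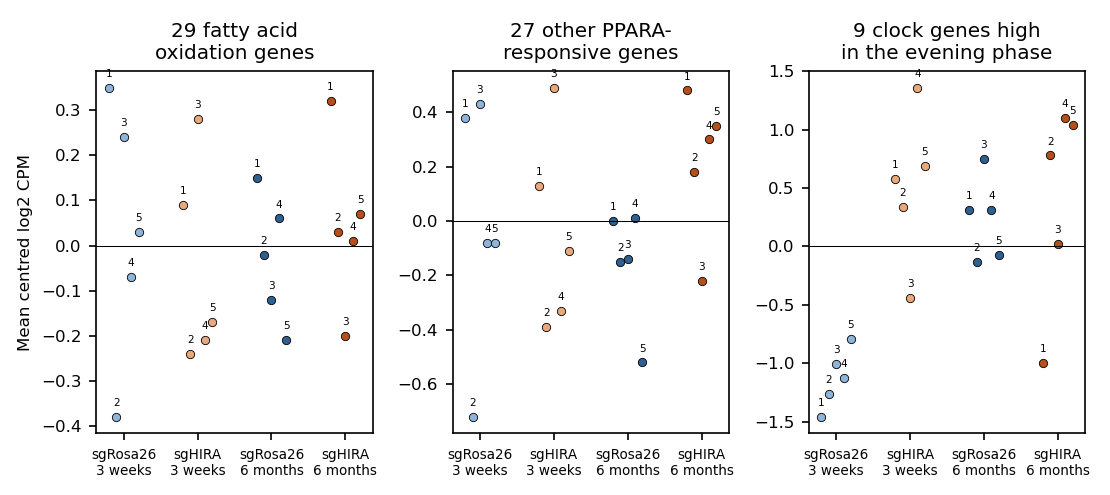
Mean centred log2 CPM of the 29 members, of 27 other PPARA-responsive genes and of 9 evening clock genes, with a point and its replicate number for each library in 4 groups. The members' points overlap between all groups, with group means from -0.05 to 0.05, while the clock points of the sgRosa26 livers at 3 weeks (-1.46 to -0.79) lie below those of the sgHIRA livers at 3 weeks (-0.44 to 1.36).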

How the data were processed

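Poly(A) RNA of whole liver was sequenced by the authors from directional libraries. Per the paper, reads were aligned to mm10 (GRCm38) with STAR and counted with HOMER, while the processing notes name STAR, HTSeq and Cufflinks. The authors deposited raw counts per gene, without normalization, and FPKM values per gene. Which tool made the FPKM values, and whether counting used the strand, is not given in the sources used here.

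Samples were grouped by guide and time from their titles. Genes with at least 10 counts over the 20 libraries were tested with the quasi-likelihood test of edgeR 4.0.16 (TMM normalization, a mean per group, all 20 libraries sharing the spread) and Benjamini-Hochberg adjustment over 22867 genes. A call is an adjusted p below 0.05, as in the study, which also asked for an absolute log2 fold change above 1. CPM used TMM library sizes, and log2 CPM a prior count of 2. The FPKM values served for levels between genes and, as log2(FPKM + 1) and log2(FPKM + 0.1) at a mean FPKM of at least 0.1, for limma 3.58.1. DESeq2 1.42.0, R 4.3.3, Python 3.11.15, NumPy 2.4.6 and matplotlib 3.10.9 were also used.

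On simulated counts for the 6-month guide comparison over 22867 genes, edgeR recovered 82% of 100 genes changed by 1 on the log2 scale and 100% of 100 changed by 2. The changed genes were drawn from those with a mean of at least 1 CPM. Changes below 1, where most members lay, and shifts of whole libraries were not simulated, so the recovery of such changes is not known. Replicate libraries were compared in 40 pairs, and 0 were identical. Gene positions, exon overlaps and coding sequences came from GENCODE M21, whose identifiers matched all 29 members with the version, and promoters from RefSeq (GRCm38.p6).

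All 29 members could be named. Values in every sample were given for members past the adjusted threshold and, since fewer than 6 passed, for the 6 members with the smallest unadjusted p in a guide comparison (Echs1, Acat1, Acot1, Eci2, Acot2 and Etfb). Of other lists, called genes were named, or else up to 3 with the largest absolute log2 fold change at a mean of at least 1 CPM, and Hira, Xist and Y genes as checks. The members and lists were chosen with earlier results of these data known. Alternatives were DESeq2, relative log expression factors, no filter, filterByExpr, a replicate block, the 10 samples of a comparison alone, each library left out, limma on FPKM, and summed counts of near-identical copies.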

Additional observations from a re-analysis of the deposited data

Results flagged for a closer look

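Within each group of 5 libraries, the highest and the lowest value of each member and of the members' mean were set against the rest of the group, and 4 of 120 such groups held a value whose gap to its neighbour took more than 0.71 of the group's range. Chance alone gives about 1 in 20. In replicate 2 of the sgRosa26 livers at 3 weeks, Acsl1 stood at 450.1 CPM (790.3 to 880.7 in the other 4) and Ehhadh at 162.5 CPM (348.5 to 402.1 in the other 4). That library was also the lowest of its group in 22 of 29 members. In replicate 1 of the sgHIRA livers at 6 months, Hadhb stood at 118.9 CPM (92.24 to 96.67 in the other 4) and Acot1 at 91.2 CPM (24.64 to 25.67 in the other 4).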

How the results depend on the processing

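At 3 weeks, between times in the sgHIRA livers and for the change of the guide effect with time, 0 members were called in every alternative run. In the sgRosa26 livers DESeq2 called 1 member between times, Hadh (0.27, adjusted p = 0.0397), and no other alternative called any. At 6 months Echs1 was called by DESeq2, relative log expression factors, filterByExpr, the replicate block and summed copies. It was not called, leaving 0 members, with no filter (-0.35, adjusted p = 0.0645), with the 10 samples of the comparison alone (-0.36, adjusted p = 0.158, where edgeR called 0 genes, with 2629 at an unadjusted p below 0.05) and with limma on FPKM (-0.29, adjusted p = 0.10 and 0.14). Leaving out single libraries gave 0 to 1 members called at 6 months and 0 to 0 in the other comparisons, and the call on Echs1 was lost in 6 of 20 cases. The cause was not tested. Acat1 and Pdk4 at 3 weeks, Echs1, Acot1, Eci2, Acot2 and Etfb at 6 months, Pdk4 between times in sgRosa26 livers and Cpt1a in sgHIRA livers kept their sign in every alternative run. The members' median ran from -0.15 to -0.03 at 3 weeks, from -0.04 to 0.08 at 6 months, from -0.06 to 0.04 between times in sgRosa26 livers, from 0.05 to 0.20 between times in sgHIRA livers and from 0.05 to 0.23 for the change of the guide effect. With 1 library left out, the 5 evening clock calls were each lost in 6 to 12 of 20 cases.

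Counts over all genes moved more. In the order guide at 3 weeks, guide at 6 months, time in sgRosa26 and time in sgHIRA livers, edgeR called 45, 299, 74 and 15 genes, DESeq2 228, 895, 511 and 141, no filter 55, 250, 93 and 30, filterByExpr 69, 458, 149 and 16, the 10 samples alone 149, 0, 147 and 9, limma on log2(FPKM + 1) 42, 291, 57 and 6, and limma on log2(FPKM + 0.1) 27, 166, 8 and 5. Leaving out single libraries gave 4 to 103, 49 to 395, 1 to 213 and 5 to 31 genes. Replicate numbers are not stated to pair livers, and 14 of 30 same-numbered pairs had deviations correlated above 0.1 (range -0.31 to 0.33). The replicate block called 1 member at 6 months and 0 elsewhere, and 54, 324, 151 and 37 genes. Counting depth limits Acot2 most (88 counts in its lowest library).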
